A study of Mus musculus with 16 samples.

Results

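The 10 genes described here encode parts of the contractile actin cytoskeleton: Acta2, Tagln, Cnn1, Cnn2, Myl9, Tpm1, Tpm2, Actb, Actg1 and Vcl. They were chosen by name, with earlier results of these data known, so comparisons with all genes are descriptions. All 10 were found among the 21938 protein-coding genes of the GENCODE M21 annotation (GRCm38, the mm10 build). RNA polymerase II (Pol II) and histone H2B carrying a single ubiquitin (H2Bub1) were mapped by chromatin immunoprecipitation and sequencing (ChIP-seq). Wild-type cells (WT, Atxn7l3+/+) were set against cells without ATXN7L3 (KO, Atxn7l3-/-). ATXN7L3 is the shared adaptor of 3 deubiquitylating enzymes, USP22, USP27X and USP51, that take ubiquitin off H2B. The cells were mouse embryonic stem cells (mESCs), derived from blastocysts and grown with LIF, 15% serum, 1 uM PD0325901 and 3 uM CH99021, and mouse embryonic fibroblasts (MEFs) of E10.5 embryos, grown in 10% serum. The mESCs had been taken off feeder cells. All groups came from a DBA/2 x C57BL/6 background with no drug treatment beyond these media. By the study's design the KO cells came from embryos homozygous for the germline null allele. The study calls the KO fibroblasts MEF-like cells. Each of the 8 groups used here was 1 library with its own peak list, 4 for Pol II and 4 for H2Bub1, so differences between groups could not be checked against replicates or tested. Read depth is unknown.

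Actin filaments slide past myosin II to pull on the cell, and tropomyosins and calponins wind along or bind the filament and set how myosin can reach it. Focal adhesion proteins tie filament ends to the matrix. In fibroblasts many of these genes are driven by serum response factor (SRF), which binds DNA at the CArG box, with its cofactors MRTF-A and MRTF-B, which free actin holds back. H2Bub1 lies over the bodies of transcribed genes, and Pol II is densest just after the transcription start site (TSS). In these data a Pol II promoter peak is a listed peak with at least 1 bp within 1000 bp of the TSS. Its fold is the pileup over the local background of the same library, at the summit. The covered share is the percentage of bases from the TSS to the gene end that lie inside peaks.

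The set holds 3 actin isoforms. Acta2 (ENSMUSG00000035783.9), the smooth muscle alpha actin that marks contractile fibroblasts, lies on the minus strand at chr19:34241090-34255590. Actb (ENSMUSG00000029580.14, minus strand, chr5:142903115-142906754) and Actg1 (ENSMUSG00000062825.15, minus strand, chr11:120345690-120348542) encode the cytoplasmic beta and gamma actins found in all cells. The tropomyosin genes are Tpm1 (ENSMUSG00000032366.15, minus strand, chr9:67022590-67049406) and Tpm2 (ENSMUSG00000028464.16, minus strand, chr4:43514711-43523765). The calponin family is represented by Cnn1 (ENSMUSG00000001349.5, plus strand, chr9:22099216-22109630), best known from smooth muscle, by the more widely used Cnn2 (ENSMUSG00000004665.10, plus strand, chr10:79988584-79996062), and by the related transgelin gene Tagln (ENSMUSG00000032085.5, minus strand, chr9:45929619-45936058). Myl9 (ENSMUSG00000067818.6, plus strand, chr2:156775420-156781658) encodes a regulatory light chain of myosin II. Vcl (ENSMUSG00000021823.10, plus strand, chr14:20929398-21033676) encodes vinculin, which couples filaments to focal adhesions. Bodies ran from 2.85 kb in Actg1 to 104 kb in Vcl. The Tagln body overlaps the end of Pcsk7 and the antisense gene Gm48529, the Vcl body overlaps Ap3m1, and Abca7 starts 432 bp past the end of Cnn2. Stambpl1 lies 757 bp from Acta2 and Car9 982 bp from Tpm2. The noncoding gene 0610009L18Rik starts inside the Actg1 promoter window. Peaks at these places cannot be given to 1 gene.

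CArG boxes were searched because SRF binding sites are the best known shared feature of these promoters. The box is CC, then 6 bases that are each A or T, then GG, and it reads the same on both strands. RefSeq promoter sequences (GRCm38.p6), 250 bases before and 50 after the annotated start, were matched for 8 of the 10 genes. A box was present in 4 of these 8, against 1.63% of all 32851 promoters of the same length. With 1 of the 6 central bases allowed to be G or C, a setting added after the sequences had been seen, Acta2 joined with 2 boxes and Myl9 gained another box, and 9.98% of all promoters held a match. Cnn1, Tpm1 and Tpm2 held none under either setting in this window. The stretches of 30 bases around each match are given on the gene's strand with the box in capitals:
Actg1 chr11:120348566-120348595: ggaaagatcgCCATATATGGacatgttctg
Vcl chr14:20929161-20929190: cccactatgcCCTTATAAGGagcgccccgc
Cnn2 chr10:79988534-79988563: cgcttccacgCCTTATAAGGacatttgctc
Myl9 chr2:156775293-156775322: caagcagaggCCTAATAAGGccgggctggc
Myl9, looser match, chr2:156775355-156775384: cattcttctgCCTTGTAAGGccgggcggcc
Acta2, looser match, chr19:34255438-34255467: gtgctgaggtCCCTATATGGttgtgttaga
Acta2, looser match, chr19:34255388-34255417: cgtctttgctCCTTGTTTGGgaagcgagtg
The exact boxes began 56 bases before the RefSeq start in Cnn2, 90 in Actg1, 161 in Myl9 and 227 in Vcl, and Vcl and Cnn2 held the same 10 letters. A match is a description of the sequence, and SRF binding was not measured.

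Before the genes themselves, the lists were checked against their labels. From the start of exon 3 to the end of exon 12 of Atxn7l3, H2Bub1 peaks covered 100% in WT mESCs and 0.401% in KO mESCs. In MEFs the same stretch was 9.65% covered in WT and 7.43% in KO, so there the mark did not separate the genotypes. In mESCs, Pol II peaks lay over 23.9% of it in WT and 13.7% in KO, and in MEFs over 7.03% and 0. Exon 2, which the study's methods place between the loxP sites together with the rest of this stretch, was fully covered by H2Bub1 peaks in all 4 lists and by Pol II peaks in both MEF lists. The H2Bub1 lists of mESCs thus separated the genotypes at this gene, and the others did so weakly or not at all. The pluripotency markers Pou5f1, Nanog and Sox2 had Pol II at their promoters in the 2 mESC lists and in neither MEF list, and all 5 fibroblast markers (Col1a1, Col1a2, Thy1, Twist2, Pdgfra) had them in both MEF lists and neither mESC list. The MEF lists differed in other lineages. Single cardiac, endothelial and blood markers had a promoter peak in KO MEFs alone, Tnnt2 (4.18), Pecam1 (4.31) and Csf1r (3.53). The endothelial marker Kdr (2.61) had one in WT MEFs alone. The 4 mesothelial markers Msln, Upk1b, Upk3b and Wt1 had promoter peaks in KO MEFs alone, at folds of 10.2, 38.6, 18.1 and 11.6. Of 4 smooth muscle markers outside the set, Myh11, Lmod1 and Actg2 had peaks in WT MEFs (2.41, 10.6 and 6.36), 1 of which, Lmod1, had a peak in KO MEFs (4.61), and Des had none in any list. The Myh11 peak lay 971 bp from the TSS, at the edge of the window, and the median fold of all WT MEF Pol II peaks was 3.95. The Pol II lists held 45870 peaks in WT MEFs, 32232 in KO MEFs, 17074 in WT mESCs and 11963 in KO mESCs.

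In mESCs, 3 of the 10 genes had a Pol II promoter peak in each genotype, and they were the same genes, Actb, Actg1 and Vcl. Over all protein-coding genes the share with a promoter peak was 33.9% in WT mESCs and 31.3% in KO mESCs. Actb stood at 10.7-fold over background in WT mESCs and 6.04-fold in KO mESCs. Actg1 was lower in WT (7.60) than in KO (10.9). Vcl was nearly equal, at 5.45 and 5.21. The cytoplasmic actins and vinculin thus had Pol II peaks at their starts in stem cells, and the other 7 genes had none there.

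Among the other 7 genes the nearest Pol II peak in WT mESCs lay from 5250 bp (Tpm1) to 32973 bp (Myl9) from the TSS. The Tpm1 peak lay inside the gene. Its summit was 5629 bp past the TSS of the gene record in WT mESCs, at a fold of 4.41, and 5711 bp past it in KO mESCs, at 6.25. Coding transcripts of Tpm1 are annotated to start from 5444 to 5697 bp past that TSS, where the internal promoter of the shorter tropomyosins lies. When any annotated coding start was allowed, Tpm1 therefore counted as a gene with a promoter peak and the number in mESCs was 4 in each genotype. Acta2 had a peak of 0.5 kb near its 3′ end in both genotypes, starting 13555 bp past the TSS in WT and 13571 bp in KO.

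In MEFs, Pol II peaked at the promoters of all 10 genes in WT and of 9 in KO, against 54.1% and 51.1% of all genes. A peak in both MEF lists and in neither mESC list was found for 6 of the 10, namely Acta2, Tagln, Cnn2, Myl9, Tpm1 and Tpm2, and for 14.1% of all genes. Cnn1 was the 1 gene with a peak in WT and none in KO MEFs, a pattern shared by 8.16% of the promoters that had a peak in WT MEFs. Actb, Actg1 and Vcl, which had peaks in all 4 lists, had higher folds in WT MEFs than in either mESC list, as did Atxn7l3 itself (3.61 in WT mESCs and 20.9 in WT MEFs), and each fold is relative to its own library's background.

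**Figure D1:**
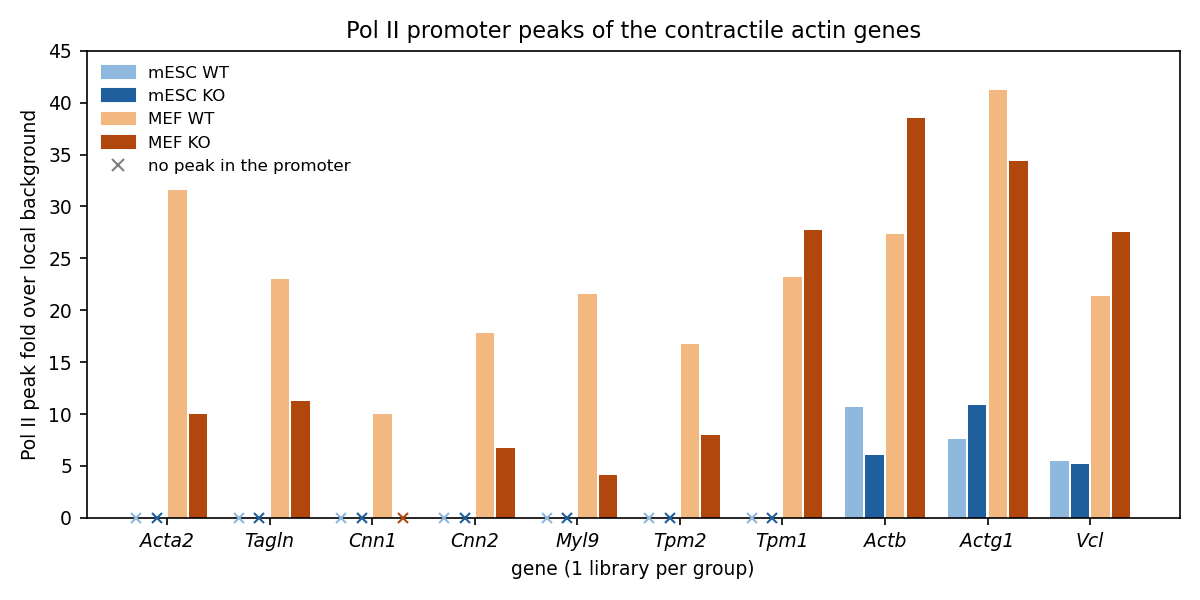
Fold of the highest Pol II promoter peak over local background (vertical axis) for the 10 genes (horizontal axis) in WT and KO mESCs and WT and KO MEFs, 1 library each; crosses mark promoters with no peak. Acta2, Tagln, Cnn1, Cnn2, Myl9 and Tpm2 have the tallest bar in WT MEFs and no bar in mESCs, and Cnn1 has a bar in WT MEFs alone.

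Acta2, Tagln and Cnn1, all well known from smooth muscle, had lower Pol II promoter peaks in KO MEFs or none. Acta2 had the highest of them in WT MEFs, at 31.6-fold, and stood at 10.0-fold in KO MEFs, 3.15 times lower. Tagln, whose protein binds actin bundles in contractile cells, was at 23.0 in WT and 11.3 in KO, 2.04 times lower. Cnn1 was at 9.98 in WT MEFs. No KO MEF peak of any height lay nearer than 13228 bp to its TSS. These 3 genes had a peak in WT MEFs and none at their promoters in either mESC list.

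Among the 9 genes with a promoter peak in both MEF lists, Myl9 differed most. Its promoter peak was 21.6-fold over background in WT MEFs and 4.13-fold in KO MEFs, 5.22 times lower. That placed it at percentile 85.5 of the promoters with a peak in WT MEFs and at percentile 6.55 in KO MEFs. In both lists the summit was within 60 bp of the TSS, 54 bp past it in WT and 59 bp past it in KO, downstream of the exact CArG box printed above. Tpm2, a tropomyosin of muscle and fibroblasts, was at 16.8 in WT and 7.95 in KO, 2.11 times lower, with summits 351 and 355 bp past the TSS. Cnn2 was at 17.8 in WT and 6.73 in KO. The WT value of Cnn2 cannot be read as its promoter's own, because a single peak of 14.3 kb covered the gene and its highest summit was 7852 bp past the TSS, beyond the gene end and near the start of Abca7. In KO MEFs the Cnn2 peak was 2.38 kb long with its summit 63 bp past the TSS.

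The remaining 4 genes stayed within 1.5 times between genotypes in MEFs. Actb was at 27.3 in WT MEFs and 38.5 in KO MEFs, 1.41 times higher. Vcl was at 21.4 and 27.5, 1.29 times higher, and Tpm1 at 23.2 and 27.8. Actg1 had the highest fold of the set in WT MEFs, 41.3, and was at 34.4 in KO MEFs. Actb in KO MEFs and Actg1 in WT MEFs stood at percentiles 99.6 and 99.8 of all promoters with a peak. The genes Actb, Actg1 and Vcl, 3 of these 4, were also those with a promoter peak in mESCs, whereas none of the 6 genes that were lower or without a peak in KO MEFs had one.

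Of the 9 genes with a promoter peak in both MEF lists, 5 were lower in KO by 1.5 times or more and 0 were higher. Over the 10892 promoters with a peak in both MEF lists these shares were 24.3% and 5.72%. The median log2 of KO over WT was -1.03 for the 9 genes and -0.23 for all 10892 promoters, so promoters as a whole were also lower in the KO list. Relative to that common shift, the genes fell on both sides, as the distribution of MEF ratios shows. Myl9 was at percentile 0.147 of all promoters, Acta2 at 1.10, Cnn2 at 2.08, Tpm2 at 5.85 and Tagln at 6.82. Tpm1, Vcl and Actb were at percentiles 83.7, 88.1 and 92.1, and Actg1 at 47.2. Without Cnn2, whose WT summit lay outside the promoter, 4 genes were lower by 1.5 times or more and the median was -0.65. The 4 genes with an exact CArG box were found on both sides, Myl9 and, with the limit on its WT value, Cnn2 among the lower ones, and Actg1 and Vcl among those within 1.5 times. The mesothelial markers had Pol II peaks in KO MEFs alone. The smooth muscle markers had peaks for 3 of 4 in the WT list, Myh11 at the window edge, and for 1 of 4 in the KO list. Both groups of markers differed between the MEF lists alongside this result. So did 4 of the 5 fibroblast markers, which were lower in KO MEFs by 1.5 times or more: Col1a2 (43.3 in WT, 19.4 in KO), Twist2 (1.95 times lower), Thy1 (13.4 and 7.11) and Col1a1 (38.3 and 23.9), with Pdgfra at 12.7 and 10.8. Their part in it was not tested. A different mix of cells and less Pol II per cell cannot be told apart in bulk chromatin.

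**Figure D2:**
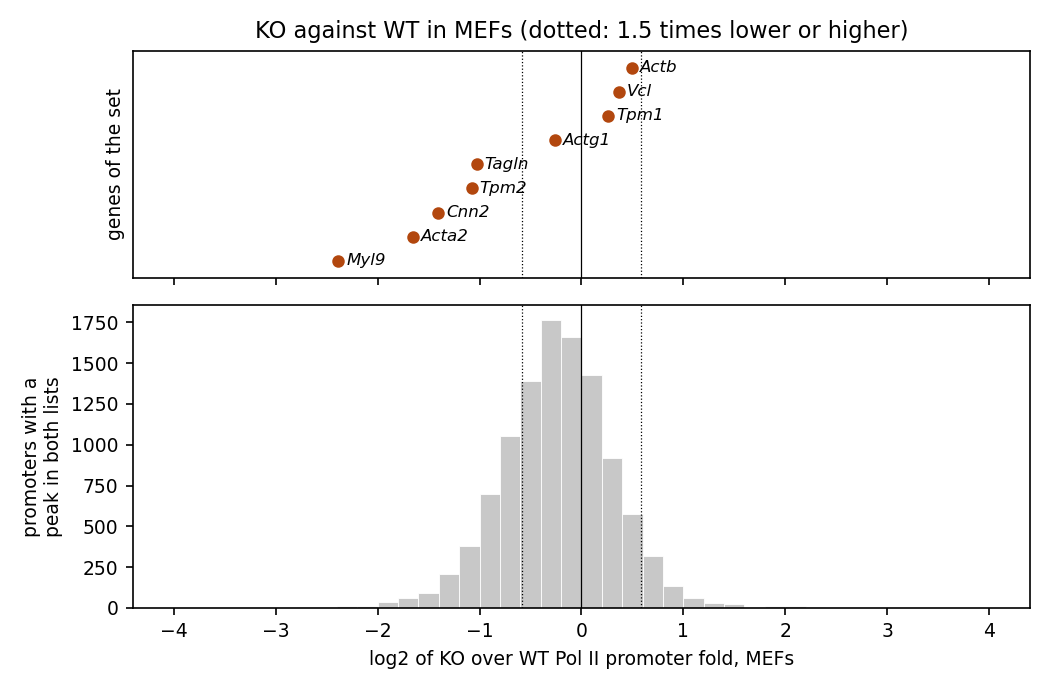
Log2 of the KO over WT Pol II promoter fold in MEFs (horizontal axis) for the 9 genes with a peak in both lists (points, upper panel) and as a histogram over the 10892 promoters with a peak in both (vertical axis of the lower panel: number of promoters); dotted lines mark 1.5 times lower and higher. Myl9, Acta2, Cnn2, Tpm2 and Tagln lie left of the lower dotted line and the other 4 genes between the dotted lines.

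In mESCs, 3 genes had peaks in both genotypes. Actb was 1.77 times lower in KO, and 0 were higher by 1.5 times or more; the shares of all 5751 promoters were 10.8% lower and 11.0% higher. Actb was thus at percentile 4.56 of the mESC ratios and at percentile 92.1 of the MEF ratios. The summit of the Actb peak was 129 bp past the TSS in WT mESCs and 498 bp past it in KO mESCs, whereas in MEFs it was at 164 and 197 bp.

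Pol II peaks also covered the bodies of these genes in WT MEFs. The covered share was 100% for Acta2, Cnn2, Tpm1 and Actb, that is 4 of 10 genes, against 1.64% of all genes. It was 98.7% for Myl9, 98.5% for Tagln, 87.6% for Actg1, 83.6% for Tpm2, 71.5% for Vcl and 40.0% for Cnn1. The median of the 10 genes was 98.6%, and that of the 11860 genes with a promoter peak in WT MEFs was 5.94%. In mESCs the highest share of the set was that of Actb, 41.3% in WT and 38.4% in KO, followed by Actg1 with 18.6% and 23.3%, and every other gene was under 5%.

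In KO MEFs the Pol II covered share was smaller for 9 of the 10 genes and equal for Actb, at 100% in both, and it was smaller for 74.0% of all genes with a Pol II peak in either MEF list. When peaks less than 1000 bp apart were joined, it was smaller for 5 of the 10. Myl9 differed most in percentage points, with 98.7% in WT and 5.34% in KO. Its peaks spanned the whole gene in WT, while in KO 1 peak of 1.23 kb sat on the start and the middle and end of the gene were without a peak. Peaks covered 40.0% of Cnn1 in WT and none of it in KO. Cnn2 stood at 100% and 33.4%, and Tpm2 at 83.6% and 30.4%. Acta2 was covered to 100% in WT, in 1 peak of 22.0 kb that ran past the gene end, and 78.4% in KO, broken into 7 peaks. The WT peak also reached Stambpl1, 757 bp from Acta2. Tagln was at 98.5% and 83.2%. Vcl, with a promoter fold that was higher in KO, was covered to 71.5% in WT and 43.2% in KO, in 57 and 58 peaks. Its exons were covered to 93.5% in WT and 76.6% in KO and its introns to 69.6% and 40.4%. Tpm1 and Actg1 differed little, from 100% to 93.8% and from 87.6% to 83.7%. The median of the 10 genes was 60.8% in KO MEFs.

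**Figure D3:**
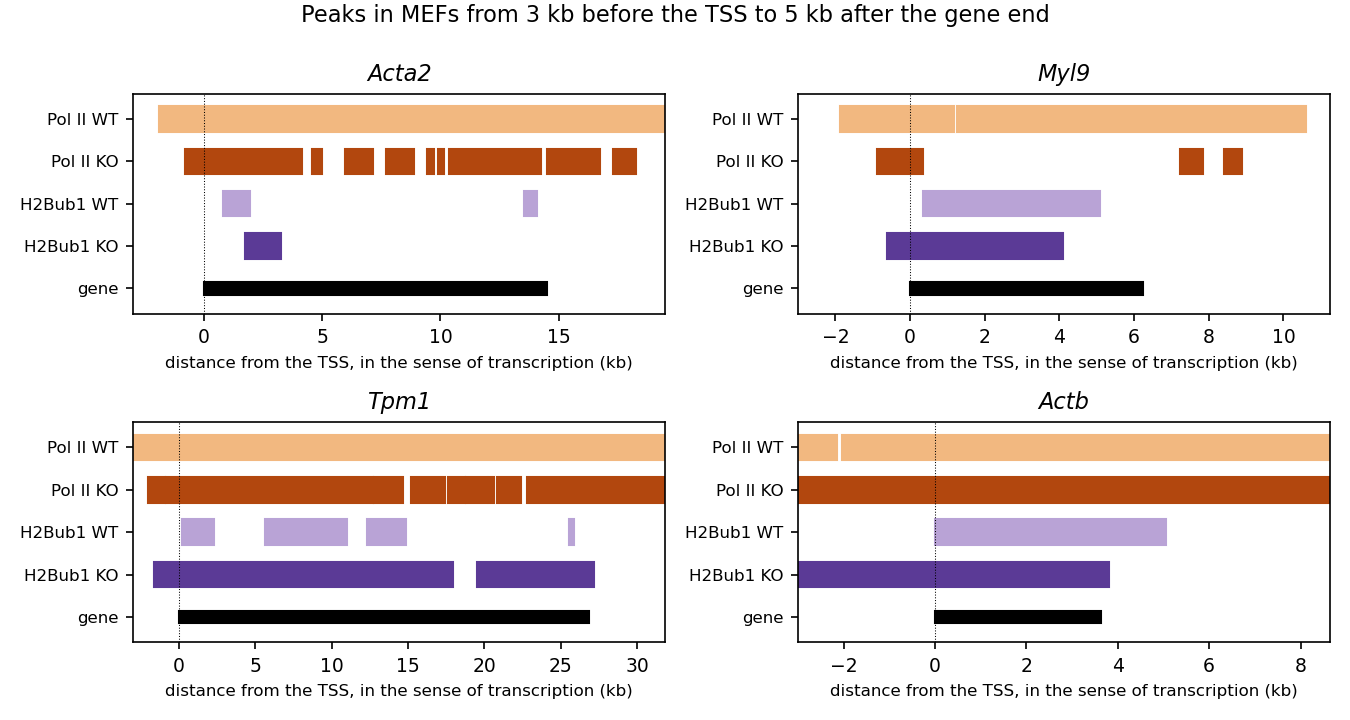
Peaks in MEFs (blocks) along Acta2, Myl9, Tpm1 and Actb, by distance from the TSS in kb (horizontal axis, drawn in the sense of transcription), with 1 line each for Pol II and H2Bub1 in WT and KO and the gene body in black. Within the gene body, Pol II blocks of Myl9 span nearly the whole gene in WT and only its start in KO. Short KO blocks also lie past the end of Myl9. Acta2 is broken into 7 peaks over the body in KO, and the body of Actb stays covered throughout.

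H2Bub1 over these genes fell into distinct kinds. Actb and Actg1 were covered by H2Bub1 peaks over the whole body, 100% in all 4 lists, as were 0.109% of all genes. Coverage of the body alone could not become larger there. The broad peak over Actb measured 5.8 kb (WT) and 8.5 kb (KO) in mESCs and 5.1 kb and 7.6 kb in MEFs, and that over Actg1 was 9.2 and 11.0 kb in mESCs and 6.4 and 10.2 kb in MEFs. Over Actb the mean fold of the broad peak was 5.7 and 3.8 in WT and KO mESCs, and 3.5 and 4.1 in WT and KO MEFs.

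In mESCs, 6 of the 10 genes had an H2Bub1 peak in the body in WT and 6 in KO, against 53.6% and 60.8% of all genes. The share was larger in KO for 4 genes, and for 83.6% of all genes with a peak in either list. Tpm1 was covered to 16.5% in WT mESCs and 50.9% in KO mESCs, Cnn2 to 32.7% and 49.8%, Myl9 to 0 and 19.5%, and Vcl to 2.37% and 6.01%. The Tpm1 difference came without a promoter peak at the TSS of the gene record in either genotype. Acta2 had 2.79% in WT and 0 in KO. Tagln, Cnn1 and Tpm2 had no H2Bub1 peak in either mESC list. With peaks of a -log10 q of at least 3 alone, 2 genes had a larger share in KO mESCs, Tpm1 and Vcl, and Cnn2 and Myl9 were at 0 in both genotypes.

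In MEFs, 8 of the 10 genes had an H2Bub1 peak in the body in WT and 9 in KO, against 30.4% and 53.0% of all genes. The share was larger in KO for 5 genes, smaller for 2, equal at 100% for Actb and Actg1 and 0 in both for Cnn1, and it was larger for 98.7% of all genes with a peak in either list. Tpm1 went from 38.4% in WT to 94.3% in KO, and Vcl from 30.1% to 76.4%. Vcl held 6 peaks in WT, the longest of 17.0 kb, and 7 in KO, the longest of 71.9 kb. Cnn2 was at 23.5% in WT and 68.6% in KO and Tagln at 33.6% and 55.4%. In Tagln the WT peak lay over the end of the gene, which Pcsk7 and Gm48529 share, whereas the KO peak lay over its start and middle. Without the bases shared with other genes Tagln stood at 14.2% in WT and 76.1% in KO, and the difference was 61.8 percentage points in place of 21.8. Tpm2 had no H2Bub1 peak in WT MEFs and 56.6% in KO MEFs.

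Myl9 and Acta2 were the 2 genes with a smaller H2Bub1 share in KO MEFs. Myl9 was covered to 76.0% in WT and 65.8% in KO, and Acta2 to 11.8% and 10.4%. In both the KO peak had shifted relative to the WT peak. The KO peak of Myl9 covered the TSS and left the end of the gene free, while the WT peak began 343 bp past the TSS. In Acta2 the WT list had 2 short peaks, near the start and near the end of the gene, and the KO list had 1 peak beginning 1743 bp past the TSS. Acta2 thus combined a Pol II promoter fold in the highest few percent of WT MEFs (percentile 97.9) with H2Bub1 peaks over 11.8% of its body. The median share of the 10 genes was 31.8% in WT MEFs and 67.2% in KO MEFs. All genes with Pol II at the promoter had medians of 0.879% and 49.9%. In mESCs the medians of the 10 genes were 2.58% and 12.8%, above the 0.866% and 5.64% of all genes and below the 17.4% and 40.8% of genes with Pol II at the promoter, to which 3 of the 10 belong there. Many H2Bub1 peaks here were weak: limited to a -log10 q of at least 3, Myl9 and Tagln had no H2Bub1 peak in either MEF list, Acta2 was at 3.82% in WT and 0 in KO, and the WT MEF median was 0.

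**Figure D4:**
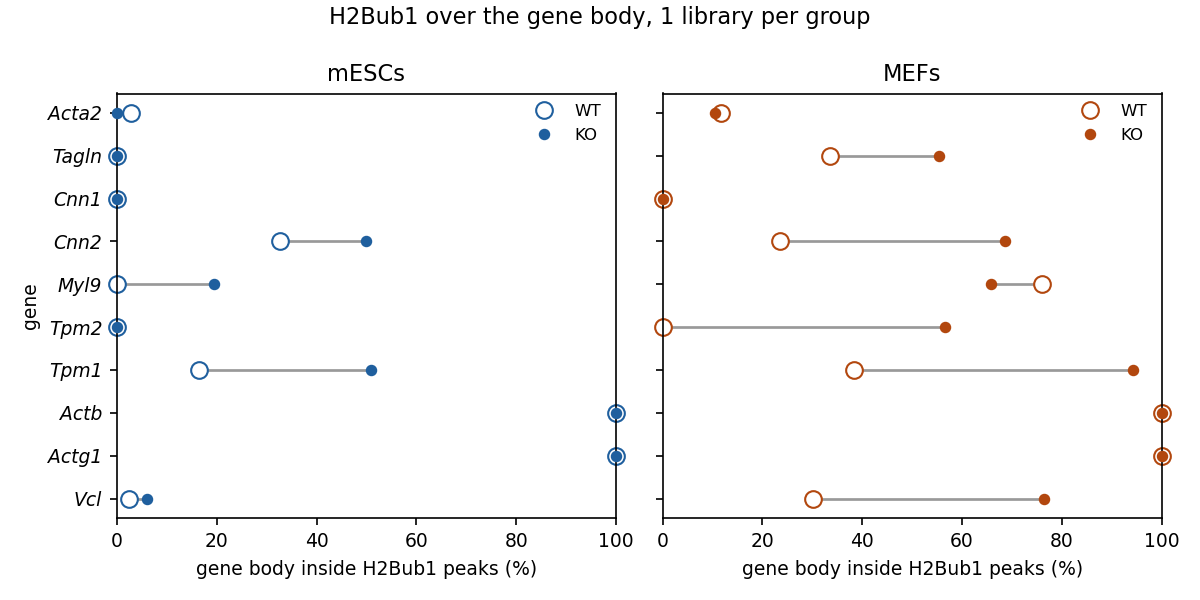
Percentage of the gene body inside H2Bub1 peaks (horizontal axis) for each gene (vertical axis) in WT (open circles) and KO (filled circles) mESCs and MEFs, 1 library per group. In MEFs Tpm1, Vcl, Cnn2, Tagln and Tpm2 lie further right in KO, Myl9 and Acta2 further left, and Actb and Actg1 stay at 100%.

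Pol II and H2Bub1 shares were set side by side in MEFs. For Tpm2, Cnn2, Vcl, Tagln and Tpm1 the Pol II share was smaller and the H2Bub1 share larger in KO. Myl9 and Acta2 had a smaller share of both. The body of Cnn1 was free of H2Bub1 peaks in each of the 4 lists. Its promoter carried Pol II in WT MEFs alone, where genes with Pol II at the promoter had a median H2Bub1 share of 0.879%. H2Bub1 coverage was larger in KO both at Tpm2, with a lower Pol II promoter peak, and at genes with similar ones (Tpm1, Vcl).

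**Figure D5:**
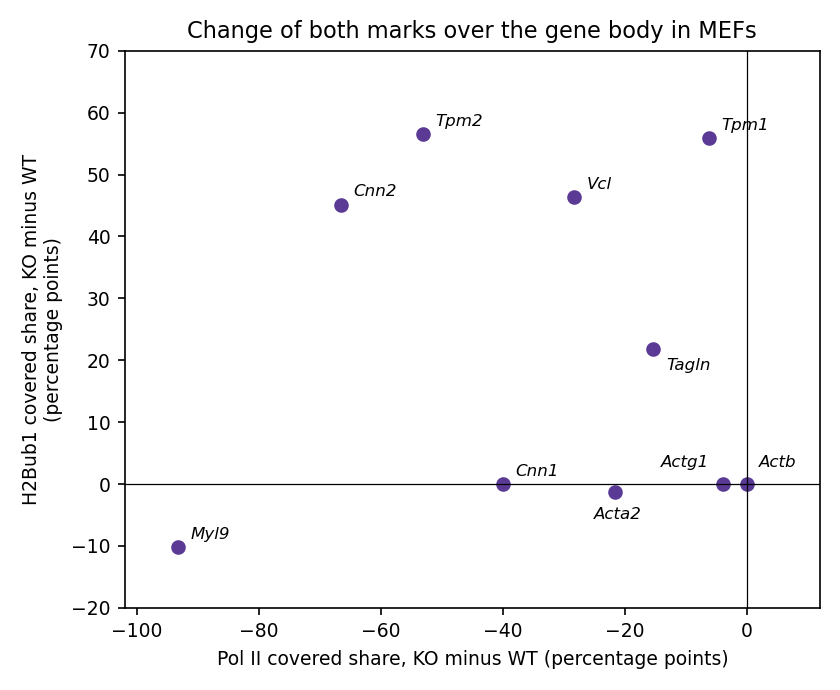
KO minus WT difference of the Pol II covered share (horizontal axis) and of the H2Bub1 covered share (vertical axis) of the gene body in MEFs, in percentage points, 1 point per gene. Tpm2, Cnn2, Vcl, Tagln and Tpm1 lie at upper left, Myl9 and Acta2 below 0 on both axes, and Actb at the origin.

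Other genes of the actin cytoskeleton were taken from a list of 42. Their promoters held a Pol II peak for 36 genes in WT and 34 in KO MEFs (54.1% and 51.1% of all genes), and for 23 in WT and 28 in KO mESCs (33.9% and 31.3%). Among the 34 with a peak in both MEF lists, 7 were lower in KO by 1.5 times or more and 1 was higher, with a median log2 of -0.37. The lower and higher shares of all promoters, 24.3% and 5.72%, were no smaller, so the list as a whole did not stand apart. The higher one was Mylk, a myosin light chain kinase gene, at 5.19 in WT and 15.2 in KO at the TSS of its gene record. Smtn, the smoothelin gene, was at 22.3 and 24.2, with the nearest peak 595 and 561 bp from its TSS. Both were named after their values were seen, and other annotated starts of these genes were not searched. The 3 with the highest fold in WT MEFs were Cfl1, which severs filaments, with 35.1 in WT and 22.4 in KO, the focal adhesion gene Zyx with 33.4 and 26.1, and the crosslinker gene Flna with 32.4 and 30.6. A peak in WT MEFs alone was found for 2 of the 36 genes, beside a share of 8.16% over every promoter with a WT MEF peak: Actg2 (6.36), the enteric smooth muscle actin, and Myh11 (2.41), the smooth muscle myosin heavy chain. The Myh11 peak lay 971 bp from the TSS. No gene of the list had a promoter peak in KO MEFs alone.

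The groups are set beside the values over all promoters, a median log2 of -0.23 in MEFs with 24.3% lower and 5.72% higher by 1.5 times or more. The tropomyosin, calponin and transgelin relatives had a median log2 of -0.56 in MEFs over 5 genes, with 2 lower by 1.5 times or more. Of the 6 myosin II genes with both peaks 3 were lower and 1 was higher. The 7 crosslinker genes had a median of -0.08, with 0 past 1.5 times in either direction. Srf itself had a fold of 16.4 in WT and 12.5 in KO MEFs, and 3.32 and 4.08 in mESCs, within 1.5 times in both cell types. Its body was covered by H2Bub1 to 32.5% in WT and 99.6% in KO MEFs. The gene of the MRTF-A cofactor, Mrtfa, had a peak in WT mESCs (2.58) and none in KO mESCs, and stood at 13.8 and 10.6 in MEFs. The gene of myocardin, Myocd, had no promoter peak in any list.

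In mESCs the list of 42 held 6 genes with a promoter peak in KO alone, against 5.13% of all genes. These were Mylk (3.55), Flna (4.14), Zyx (4.53), the focal adhesion genes Pxn (3.34) and Ilk (3.91), and Tmsb4x (7.10), whose product binds free actin. Of the 22 genes with both mESC peaks 6 were higher in KO and 2 lower by 1.5 times or more, against 11.0% and 10.8% of all promoters, and the median log2 was 0.17. The H2Bub1 share was larger in KO for 32 of the 42 genes in mESCs and for 36 in MEFs, while 2 and 3 of them had no H2Bub1 peak in either list. It was larger for 83.6% and 98.7% of all genes with a peak in either list, so most genes shared this difference. The MEF medians of the 42 were 16.6% in WT and 76.2% in KO.

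Genes with the most similar Pol II pattern were found by the Euclidean distance between log2(promoter fold + 1) over the 4 Pol II lists. Nearest to Acta2 were Ptgs2 (27.9 in WT MEFs, 10.1 in KO MEFs), Ctnnd1 (34.5 and 11.5) and Porcn (26.8 and 11.2), at distances from 0.17 to 0.27, and none of them had a peak in mESCs. Nearest to Actb were Ankrd17 and Gm9958, which share their peaks (11.8 and 6.00 in WT and KO mESCs, 31.4 and 34.5 in WT and KO MEFs), and Dnaja1 (11.6 and 7.37, 33.6 and 39.1). The likeness is over 4 libraries.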

How the data were processed

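Per the submitters' processing notes and the study's methods, the authors aligned reads of 50 bp, sequenced from 1 end, to mm10 (Bowtie 1.0.0). Peaks came from MACS2 2.1.1.20160309, library by library, narrow for Pol II and broad for H2Bub1. The control, thresholds and treatment of reads that align to several places are not given in the sources used here. H2Bub1 was scaled by the authors with size factors over intergenic regions and Pol II by total mapped reads; whether this entered peak calling is not clear, so its effect on the H2Bub1 covered shares is unknown. The fold that the authors deposited is a ratio, on a linear scale, of pileup over local background (for broad peaks the mean of the peak), so KO over WT compares values within lists. The authors also deposited the -log10 p and -log10 q of each peak, and a display score that was not used.

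Positions were counted from 1 and set on GENCODE M21. Input and serine 2 phosphorylated Pol II libraries (8 samples) were not analysed here. Values were set beside the same measure over all protein-coding genes. Genes named beyond the set were those of the list with a promoter peak in 1 genotype of a cell type, its 3 highest in WT MEFs, Srf, the 3 genes nearest to Acta2 and to Actb, and the cell type markers. Myocd, Mylk in MEFs and Smtn were added after their values were seen. The members and lists were chosen with earlier results of these data known. Part of the list of 42 is not reported by group here. Protein sequences were not used here. As alternatives, peaks were limited to a -log10 q of 3 or more, the longer list of each WT and KO pair was reduced by -log10 p to the length of the shorter, and promoters were taken as 100 bp before to 300 bp after the TSS. Others were any coding start, the summit inside the promoter, peaks less than 1000 bp apart joined, and bodies without shared bases. The functions were tested on simulated peaks. Computing used Python 3.11.15, numpy 2.4.6, pandas 2.3.3 and matplotlib 3.10.9.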

Additional observations from a re-analysis of the deposited data

Results flagged for a closer look

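Some genes differed between genotypes in opposite directions in mESCs and MEFs. With 1 library per group the difference between cell types was not tested. The log2 of KO over WT of the Pol II promoter fold of Actb was -0.82 in mESCs and 0.50 in MEFs. For Actg1 it was 0.52 in mESCs and -0.26 in MEFs, and for Vcl -0.065 in mESCs and 0.36 in MEFs. All of these except that of Actb in mESCs were within 1.5 times.

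The H2Bub1 covered share of Myl9 was 19.5 percentage points larger in KO than in WT mESCs, while the KO minus WT difference in MEFs was -10.1 points. The mESC peak was absent when the lists of a pair were reduced to equal numbers of peaks, which gave a difference of 0.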

How the results depend on the processing

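Alternatives were computed for 24 summary values and 97 values of single genes. No gene whose Pol II promoter fold differed by 1.5 times or more changed direction, but the alternatives could hardly have shown this. The fold is the deposited value of 1 peak. The alternatives kept the same peak, so the ratios of single genes were identical wherever the gene had a value. With the summit inside the promoter, Cnn2 had no WT MEF value. The median log2 of KO over WT in mESCs, -0.065 over 3 genes, was 0.22 with any coding start. With peaks of a -log10 q of at least 3 alone, the median H2Bub1 covered share of the 10 genes was 0 for mESCs of either genotype and 0 for WT MEFs, and 2 genes had a larger share in KO mESCs. With equal numbers of peaks per pair, the median in KO mESCs was 3.01%. Without the bases shared with other genes, the median Pol II covered share was 0.194% in WT mESCs and 0.128% in KO mESCs, where 0.190% and 0.841% were found with them, so the direction turned. With peaks less than 1000 bp apart joined, 5 genes had a smaller Pol II covered share in KO MEFs. The Pol II promoter counts, the number of genes lower in KO MEFs (4 or 5) and the number with a promoter peak in both MEF lists and neither mESC list (5 or 6) stayed within 1.5 times under every alternative run for them. H2Bub1 shares are the least firm values, since 22 single-gene values moved by over 1.5 times or 10 points under the stricter q. Read depth is unknown, and the number and width of called peaks vary with depth. No paired analysis was possible because each group held 1 library.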
